A study of Mus musculus with 22 samples.

Results

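Genes that cells switch on within minutes of a stimulus, or when proteins misfold, were followed through mouse primordial germ cells with and without Tet1: Fos, Fosb, Jun, Junb, Egr1, Atf3, Ier2, Dusp1, Hspa1a and Hspa1b. They were chosen by symbol, as immediate early and heat shock genes that are often reported to be induced while tissue is dissociated and cells are sorted, and they make up 10 of the 37991 genes in the count table of the Tet1 cross. All 10 also stand in a second table of 37620 genes, which holds the MF1 cross. Primordial germ cells are the embryonic precursors of eggs and sperm, and the Tet1 protein oxidises methylated cytosine, a step towards DNA demethylation.

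In the Tet1 cross both parents were heterozygous for the Tet1 mutation and carried GOF18ΔPE-EGFP, a green fluorescent reporter driven by Pou5f1 regulatory sequence, so Tet1-KO and Tet1-WT embryos came from the same matings. Germ cells were sorted by the reporter at E10.5 (embryonic day counted from mating), and from females and males apart at E12.5 and E14.5, which gives 5 stage and sex groups of 2 Tet1-KO and 2 Tet1-WT libraries each, 20 libraries in all. The Tet1-KO and Tet1-WT groups were E10.5, E12.5 female, E12.5 male, E14.5 female and E14.5 male. Each library was made from RNA pooled over 2 to 6 embryos of the same genotype and stage, and from E12.5 also of the same sex. The labels give no sex for the E10.5 libraries. The pools held 1000 to 8000 cells, and cDNA was amplified for 15 cycles. The 2 further libraries came from wild-type E10.5 embryos of MF1 females mated with males that carried the same reporter, with 600 to 1000 cells and another RNA kit. The p-values below measure only the spread between these pools.

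Fos, Fosb, Jun and Junb encode subunits of AP-1, a dimeric transcription factor, and are transcribed within minutes of growth factor or stress signals through pre-formed factors such as SRF, ELK and CREB acting downstream of MAP kinases. Egr1 encodes a zinc-finger transcription factor of the same rapid wave, Ier2 a nuclear protein of that wave, and Atf3 a stress-induced relative of AP-1. Dusp1 encodes a phosphatase that removes the activating phosphates from MAP kinases and so damps the signal. Hspa1a and Hspa1b encode nearly identical inducible HSP70 chaperones, switched on by the heat shock factor HSF1. In many tissues enzymatic dissociation and sorting raise these transcripts, so in sorted cells a level can carry the handling of the cells as well as their state.

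The 20 libraries held 9616436 to 25899505 counts, and the MF1 libraries 59415040 and 66924911. Tet1 itself had 44.5 and 102 CPM (counts scaled to the TMM library size) in the E10.5 libraries labelled Tet1-KO, against 134 and 76.8 CPM in Tet1-WT, so these libraries overlapped and Tet1 did not pass the test there (log2 -0.52, edgeR quasi-likelihood adjusted p = 0.388). In the other 4 stage and sex groups both Tet1-KO libraries lay below both Tet1-WT libraries, and over the 5 groups Tet1 was lower by log2 -1.15 (SE 0.16, edgeR adjusted p = 0.00038). A count over the whole gene does not show a deleted part, so the level is a limited check of genotype. All 11 germ cell markers were detected in every library, among them Pou5f1, Dazl and Dppa3. Markers of mesenchyme (15 genes, among them Pdgfra, Col1a1 and Nr2f2) were present too, with a summed level that ran from 46.3 to 2923 CPM. In bulk libraries fewer cells of a type and less RNA per cell cannot be told apart.

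Upstream sequence is shown for 5 genes: Fos, Jun and Dusp1, which were called lower in E14.5 than in E12.5 males, and the Hspa1a and Hspa1b pair, whose likeness limits what their counts can show. Each is the 250 bases before the start of the gene from RefSeq (GRCm38.p6), 5′ to 3′ on the gene's own strand, and RefSeq windows were matched for 8 of the 10 genes, all except Egr1 and Ier2. The windows are chr12:85473640-85473889 for Fos (+), chr4:95052223-95052472 for Jun (−), chr17:26508473-26508722 for Dusp1 (−), chr17:34972157-34972406 for Hspa1a (−) and chr17:34959239-34959488 for Hspa1b (−). Capitals mark TGACG on either strand (the core of the cyclic AMP response element, CRE) in Fos and Dusp1, GAANNTTC (a heat shock element) and CCAAT in Jun, and GAANNTTC in Hspa1a and Hspa1b.
Fos: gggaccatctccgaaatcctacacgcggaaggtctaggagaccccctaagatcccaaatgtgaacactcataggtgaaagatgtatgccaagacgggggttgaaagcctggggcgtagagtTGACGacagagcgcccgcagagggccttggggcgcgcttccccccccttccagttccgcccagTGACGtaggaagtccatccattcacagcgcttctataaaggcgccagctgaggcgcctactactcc
Jun: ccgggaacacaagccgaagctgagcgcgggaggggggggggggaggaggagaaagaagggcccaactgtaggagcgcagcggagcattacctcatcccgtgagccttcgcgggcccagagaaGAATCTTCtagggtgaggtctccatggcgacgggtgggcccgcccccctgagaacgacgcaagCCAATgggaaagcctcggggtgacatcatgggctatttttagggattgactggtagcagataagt
Dusp1: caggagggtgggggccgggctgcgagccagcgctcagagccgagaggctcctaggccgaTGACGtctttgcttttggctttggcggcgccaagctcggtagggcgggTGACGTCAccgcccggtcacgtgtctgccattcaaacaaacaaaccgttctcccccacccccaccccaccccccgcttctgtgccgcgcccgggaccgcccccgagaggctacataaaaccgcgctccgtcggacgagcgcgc
Hspa1a: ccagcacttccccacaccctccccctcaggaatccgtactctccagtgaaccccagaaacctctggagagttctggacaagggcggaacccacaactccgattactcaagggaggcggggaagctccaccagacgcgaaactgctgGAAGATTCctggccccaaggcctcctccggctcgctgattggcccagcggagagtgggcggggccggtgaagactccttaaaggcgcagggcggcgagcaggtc
Hspa1b: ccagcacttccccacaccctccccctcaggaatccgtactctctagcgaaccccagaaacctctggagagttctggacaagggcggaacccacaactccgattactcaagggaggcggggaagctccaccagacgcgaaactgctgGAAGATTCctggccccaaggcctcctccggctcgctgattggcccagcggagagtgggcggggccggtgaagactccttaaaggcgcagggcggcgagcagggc

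The Fos window holds TGACG 129 to 125 and 66 to 62 bases before the start, and a TATAAA 33 to 28 bases before it. Dusp1 holds the whole palindrome TGACGTCA 143 to 136 bases before the start, which contains TGACG on both strands, and another TGACG 191 to 187 bases before it. Searched on both strands, TGACG occurred in 5 of the 8 windows (Fos, Fosb, Junb, Atf3 and Dusp1) and in 17.8% of 32851 RefSeq windows of the same length. TGACGTCA, in which TGACG is nested, was in Dusp1 alone of the 8 and in 1.55% of all windows. GAANNTTC was in 3 of the 8 (Hspa1a and Hspa1b 104 to 97 bases before the start, and Jun 128 to 121) and in 6.69% of all. CCAAT was in 4 of the 8 and in 33.8% of all. No window held the AP-1 site TGANTCA or the CArG box bound by SRF, which were in 6.75% and 1.47% of all windows. These are matches of letters in a short window and say nothing of binding.

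The Hspa1a and Hspa1b windows were identical at 247 of 250 bases (98.8%), and their longest open reading frames at 99.4% of aligned bases. How reads that fit both genes were counted is not given in the sources used here, so the split between this pair is uncertain. Jun, Junb, Atf3, Dusp1 and Hspa1a each overlap a gene on the opposite strand (Junos, Prdx2, Gm24748, Ergic1 and Gm20481, in a GENCODE annotation of a later build than the counts). Whether the counting used strand is not given either, so reads from such a pair cannot be told apart.

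Across the 20 libraries of the Tet1 cross the AP-1 genes and Egr1 had their highest level in the same library, E12.5 male Tet1-WT replicate 1. Fos ran from 2.26 CPM (E14.5 male Tet1-WT replicate 1) through a median of 18.6 to 287 CPM, and was detected in every library. Fosb reached 14.3 CPM with a median of 0.691 CPM and had 0 counts in 3 libraries. Jun reached 51.0 CPM with a median of 3.24 CPM and had 0 counts in 1 library. Junb reached 6.29 CPM and Egr1 54.9 CPM in that library, with medians of 1.04 and 3.48 CPM, and each had 0 counts in 1 library. The 4 AP-1 genes and Egr1 therefore spanned a wide range, with most libraries far below the top.

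Atf3, Ier2, Dusp1 and the HSP70 pair had their highest levels elsewhere. Ier2 was detected in every library and ran from 4.03 CPM (E14.5 female Tet1-WT replicate 2) to 59.3 CPM (E10.5 Tet1-WT replicate 2). Dusp1 was detected in every library as well, with 1.71 CPM at its lowest (E14.5 female Tet1-WT replicate 1) and 14.7 CPM at its highest (E12.5 male Tet1-KO library b), the narrowest spread of the genes found in every library. Atf3 had 0 counts in 6 libraries and 4.60 CPM at its highest, in E10.5 Tet1-KO replicate 2. The Tet1-KO libraries of E12.5 and E14.5 carry no replicate number and are called a and b.

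The inducible HSP70 genes were at or near the limit of detection. Hspa1a had 0 counts in 14 of 20 libraries, and its highest values were 1.66 CPM (28 counts, E14.5 male Tet1-WT replicate 1) and 1.46 CPM (27 counts, E10.5 Tet1-WT replicate 2). At E14.5 the males had 0.516 and 0 CPM in Tet1-KO and 1.66 and 0.36 CPM in Tet1-WT, against 0 in all 4 female libraries. Against a floor of 3 counts per library the E14.5 males were at least 3.17-fold higher than the E14.5 females, but Hspa1a did not pass the test (edgeR adjusted p = 0.0599). Hspa1b had at most 0.475 CPM (8 counts, E14.5 male Tet1-WT replicate 1) and 0 counts in 8 libraries. It was under 3 counts in 14 libraries and did not pass the filter on low counts, so 9 of the 10 genes were tested. A count of 0 allows a level up to 3 counts, here 0.12 to 0.318 CPM depending on depth, and covers counting error only. The libraries in which the AP-1 genes were highest, E12.5 male Tet1-WT, had 0 and 2 counts of Hspa1a.

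**Figure D1:**
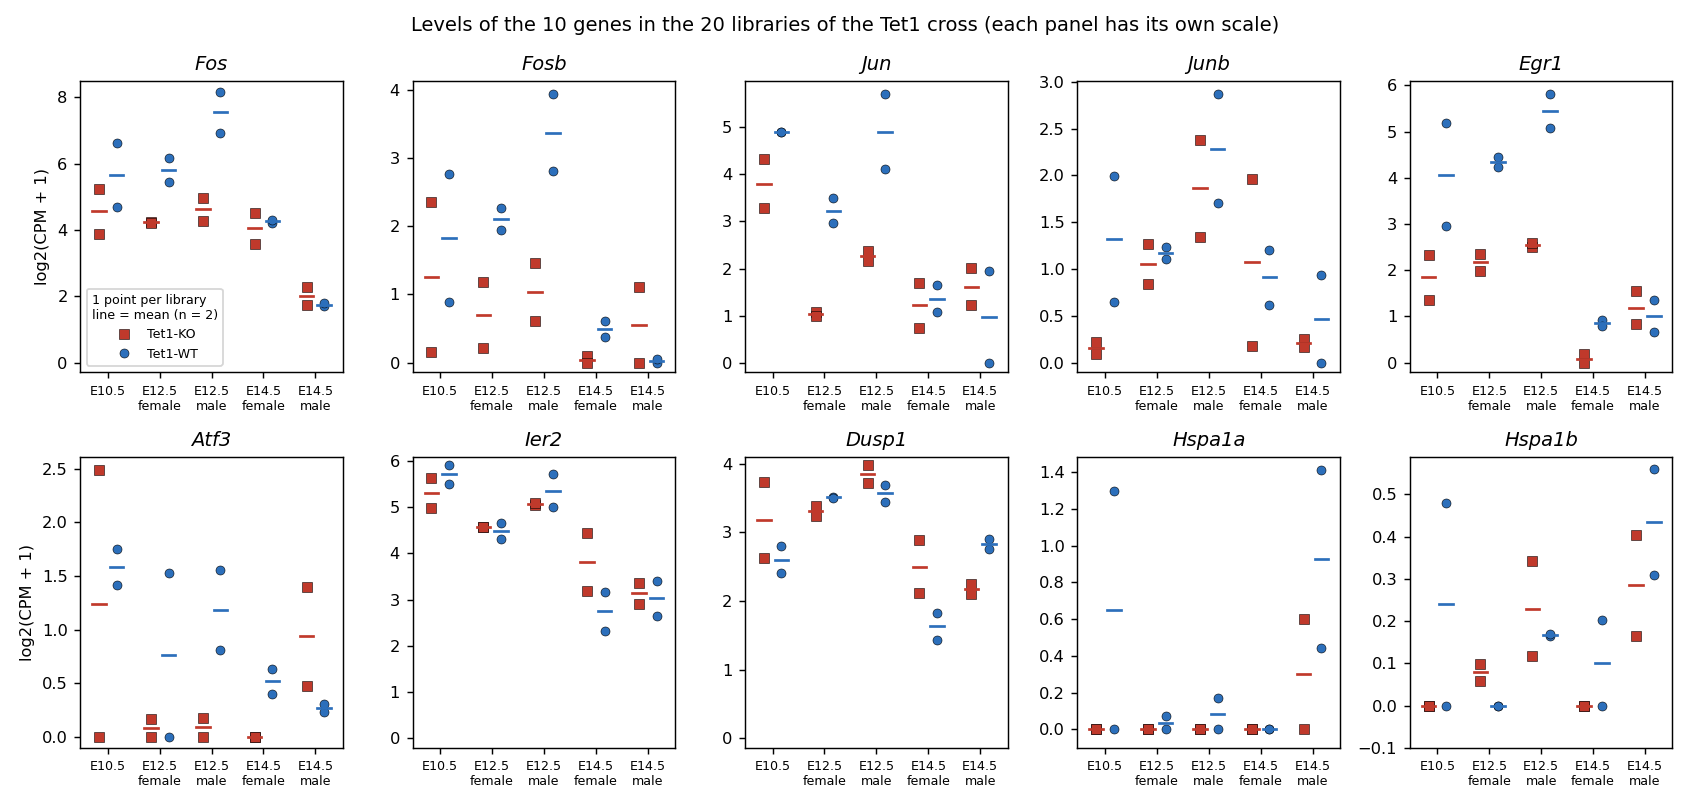
Level of each of the 10 genes, as log2(CPM + 1) with a scale of its own in each panel, in the 20 libraries of the Tet1 cross by stage and sex, with Tet1-KO (squares) left of Tet1-WT (circles). Each point is 1 library and each line the mean of 2. Fos reached 287 CPM in E12.5 male Tet1-WT replicate 1 and 2.26 CPM in E14.5 male Tet1-WT replicate 1, while Hspa1a was at 0 in 14 libraries.

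The first comparison set Tet1-KO against Tet1-WT germ cells at E10.5, before the sexes were sorted apart. Egr1 fell in the libraries labelled Tet1-KO, with 1.58 and 4.0 CPM, against 6.78 and 35.2 CPM in Tet1-WT. All Tet1-KO values lay below all Tet1-WT values, and the difference was log2 -2.90 (SE 0.77, edgeR quasi-likelihood adjusted p = 0.0316, n = 2 each). It rested on single libraries: without Tet1-WT replicate 2 it was log2 -1.27 (adjusted p = 0.407) and without Tet1-KO replicate 1 log2 -2.38 (adjusted p = 0.136). Egr1 was the only 1 of the 9 tested that was called, beside 8.81% of all 17567 genes. At an unadjusted p under 0.05, 3 were lower, beside 2487 of the 17567 lower and 4460 either way.

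Jun had 8.71 and 19.0 CPM in E10.5 Tet1-KO and 29.0 and 28.7 CPM in Tet1-WT, groups that did not overlap but did not differ by the test (log2 -1.06, adjusted p = 0.532). Fos had 36.9 and 13.7 CPM in Tet1-KO and 24.8 and 97.1 CPM in Tet1-WT (log2 -1.27, adjusted p = 0.188). The Fos libraries overlapped, and Tet1-WT replicate 2 stood well above its partner. Junb had 0.0685 and 0.164 CPM in Tet1-KO (1 and 3 counts) and 0.565 and 2.97 CPM in Tet1-WT (log2 -3.82, adjusted p = 0.167). Atf3, Ier2 and Dusp1 had overlapping groups, with Dusp1 at 12.3 and 5.20 CPM in Tet1-KO and 4.29 and 6.0 CPM in Tet1-WT.

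The mesenchyme markers summed to 659 and 1338 CPM in the E10.5 libraries labelled Tet1-KO, against 2492 and 2923 CPM in Tet1-WT, with a lower mean in Tet1-KO for 15 of 15 markers. Germ cell markers ran the other way, at 6187 and 3998 CPM in Tet1-KO and 1780 and 1463 CPM in Tet1-WT, with 11 of 11 higher in Tet1-KO. None of the 15 mesenchyme markers was at 0 in any E10.5 library. Blood markers (9 genes, mainly embryonic globins) differed more within each genotype than between them, at 1152 and 21.8 CPM in Tet1-KO and 133 and 1848 CPM in Tet1-WT. In each genotype the library with more blood marker RNA also had the higher Fos, Fosb, Ier2 and Dusp1, but the lower Jun and Atf3. Egr1 and Junb were higher in that library in Tet1-WT and lower in it in Tet1-KO. With the summed mesenchyme level as a covariate Egr1 was log2 -1.78 (adjusted p = 0.62), and in that fit 9 genes of all tested were called. The part of these cells in the Egr1 difference was not tested beyond that fit.

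At E12.5 in females Fos, Fosb, Jun, Egr1 and Dusp1 had lower values in both Tet1-KO libraries than in either Tet1-WT library. None of them passed the test. How many of all genes separated in that way was not counted, here or in the other comparisons. Fosb had 0.166 and 1.27 CPM in Tet1-KO and 3.83 and 2.84 CPM in Tet1-WT. Fos had 18.1 and 17.3 CPM in Tet1-KO and 42.6 and 70.8 CPM in Tet1-WT (log2 -1.68, SE 0.59, edgeR adjusted p = 0.219). Egr1 had 4.14 and 2.96 CPM in Tet1-KO and 18.0 and 20.9 CPM in Tet1-WT (log2 -2.44, adjusted p = 0.148). Jun had 1.12 and 0.987 CPM in Tet1-KO and 10.3 and 6.78 CPM in Tet1-WT (log2 -3.0, adjusted p = 0.22). The replicates of each group lay closer together than the groups did for Fos, Egr1 and Jun. Ier2 had 22.8 and 22.7 CPM in Tet1-KO and 24.2 and 18.9 CPM in Tet1-WT, with overlapping groups and log2 0.08. Dusp1 had 9.44 and 8.46 CPM in Tet1-KO and 10.49 and 10.3 CPM in Tet1-WT (log2 -0.22). By edgeR 0 of the 9 were called, beside 1.29% of all genes. At an unadjusted p under 0.05, 3 were lower and 0 higher, beside 1337 lower and 933 higher of all 17567 genes. DESeq2 called 2, Jun and Egr1, and a fit of the 4 libraries alone called 3, Fos, Jun and Egr1. The 1.29% belongs to the main fit, and the share of all genes called in these alternative fits is not given here.

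In E12.5 males Fos fell in Tet1-KO. It had 30.4 and 18.3 CPM in Tet1-KO and 287 and 120 CPM in Tet1-WT (log2 -3.06, SE 0.62, edgeR adjusted p = 0.0271, n = 2 each). Every Tet1-KO library lay below every Tet1-WT library, but the call was lost without Tet1-WT replicate 1 (log2 -2.31, adjusted p = 0.384), Tet1-KO library a (log2 -3.47, adjusted p = 0.129) or Tet1-KO library b (log2 -2.74, adjusted p = 0.309). Egr1 had 4.63 and 5.00 CPM in Tet1-KO and 54.9 and 32.6 CPM in Tet1-WT (log2 -3.18, SE 0.78, adjusted p = 0.0662). Jun had 3.45 and 4.2 CPM in Tet1-KO and 51.0 and 16.4 CPM in Tet1-WT (log2 -3.13, adjusted p = 0.176). These groups did not overlap either, and neither gene passed the test.

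Fosb in E12.5 males had 1.77 and 0.534 CPM in Tet1-KO and 14.3 and 6.02 CPM in Tet1-WT (log2 -3.14, adjusted p = 0.402). Junb did not separate the groups, with 4.21 and 1.53 CPM in Tet1-KO and 6.29 and 2.26 CPM in Tet1-WT. Ier2 overlapped as well, and Dusp1 had 12.1 and 14.7 CPM in Tet1-KO and 9.92 and 11.9 CPM in Tet1-WT (log2 0.30), the opposite side to the AP-1 genes. Of the 9 tested 1 was called, beside 1.06% of all genes. DESeq2 called 3 (Fos, Jun and Egr1), and the share of all genes called in that fit is not given here.

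At E12.5 the mesenchyme markers again lay with the AP-1 genes and Egr1. In females they summed to 182 and 187 CPM in Tet1-KO and 1142 and 1469 CPM in Tet1-WT, with 14 of 15 lower in Tet1-KO, and in males to 419 and 275 CPM in Tet1-KO and 2432 and 1546 CPM in Tet1-WT, with 15 of 15 lower. Tet1-WT replicate 1 of the males had the higher sum of its group, and also the highest Fos, Fosb, Jun, Junb and Egr1 of all 20 libraries. Markers of gonadal supporting cells (9 genes) summed to 16.2 to 21.8 CPM in male Tet1-KO and 62.3 to 107 CPM in male Tet1-WT. The sums of endothelial markers (8 genes) overlapped in both sexes, but they were mostly Pecam1. It ran from 198 to 428 CPM over the E12.5 libraries, where no other marker of the list passed 8.35 CPM. Of the 8, 4 had a higher and 4 a lower mean in Tet1-KO females, and 2 a higher and 6 a lower mean in Tet1-KO males. With the summed mesenchyme level as a covariate Fos in males was log2 -2.35 (adjusted p = 0.896), and no gene of the table was called in that fit. The part of the mesenchyme in these differences was not tested further.

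**Figure D2:**
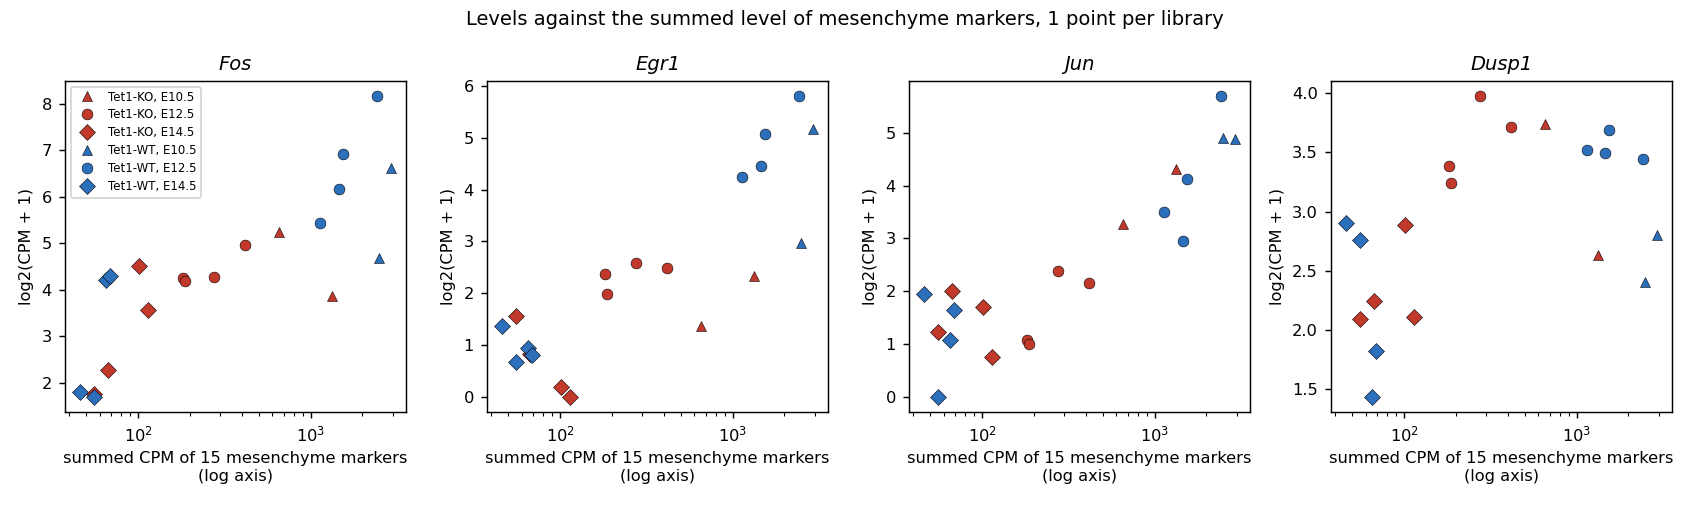
Level of Fos, Egr1, Jun and Dusp1, as log2(CPM + 1), against the summed level of 15 mesenchyme markers (CPM, log axis), with 1 point per library, Tet1-KO in red and Tet1-WT in blue, and a shape for each stage. The 5 libraries with the most Fos had marker sums of 1142 to 2923 CPM, but E10.5 Tet1-KO replicate 2 and Tet1-WT replicate 1, with sums of 1338 and 2492 CPM, had 13.7 and 24.8 CPM of Fos.

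At E14.5 Fos and Jun overlapped between the genotypes in both sexes. In females Fos had 21.9 and 10.9 CPM in Tet1-KO and 17.6 and 18.8 CPM in Tet1-WT (log2 -0.15, SE 0.59). Fosb was at 1 and 0 counts in Tet1-KO and 6 and 5 counts in Tet1-WT, too few to tell apart. Egr1 had 0.132 and 0 CPM in Tet1-KO (2 and 0 counts) and 0.906 and 0.742 CPM in Tet1-WT (18 and 7 counts), and did not pass the test (log2 -3.74, edgeR adjusted p = 0.0695). Atf3 had 0 counts in both Tet1-KO libraries and 11 and 3 counts in Tet1-WT, at least 2.62-fold lower in Tet1-KO against the floor of 3 counts per library. Ier2 had 8.18 and 20.7 CPM in Tet1-KO and 7.95 and 4.03 CPM in Tet1-WT (log2 1.25, adjusted p = 0.122). Dusp1 had 6.4 and 3.33 CPM in Tet1-KO and 1.71 and 2.54 CPM in Tet1-WT (log2 1.20, adjusted p = 0.188). Ier2 and Dusp1 thus lay higher in Tet1-KO in every library, without passing the test. By edgeR 0 of 9 were called in these females, beside 6.65% of all genes. At an unadjusted p under 0.05, 2 were higher and 1 lower, beside 1720 higher and 1972 lower of all 17567 genes. DESeq2 called 1, Egr1. Without Tet1-KO library a edgeR called Ier2, in a refit that leaves a single library in that group. The 6.65% belongs to the main fit, and the share of all genes called in these alternative fits is not given here.

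In E14.5 males Fos had 3.87 and 2.37 CPM in Tet1-KO and 2.26 and 2.48 CPM in Tet1-WT (log2 0.39, SE 0.67). Egr1 had 0.774 and 1.94 CPM in Tet1-KO and 0.594 and 1.56 CPM in Tet1-WT (log2 0.31), and Ier2 9.29 and 6.56 CPM in Tet1-KO and 9.63 and 5.27 CPM in Tet1-WT (log2 0.09). The genotypes overlapped for all 3. Atf3 had 0.387 and 1.64 CPM in Tet1-KO and 0.178 and 0.24 CPM in Tet1-WT (log2 2.23, adjusted p = 0.786). Dusp1 had 3.74 and 3.28 CPM in Tet1-KO and 5.76 and 6.47 CPM in Tet1-WT (log2 -0.80, adjusted p = 0.622). By edgeR 0 of 9 were called, beside 0.102% of all genes, and 0 had an unadjusted p under 0.05, beside 1815 of all 17567 genes. DESeq2 called 0 as well. Mesenchyme markers at E14.5 summed to 101 and 114 CPM in female Tet1-KO and 65.0 and 69.1 CPM in female Tet1-WT, and to 66.8 and 55.7 CPM in male Tet1-KO and 55.4 and 46.3 CPM in male Tet1-WT. The single markers were mixed: of 15, 5 had a higher and 9 a lower mean in Tet1-KO in females, and 9 a higher and 5 a lower mean in males. Osr1 was at 0 in all 8 libraries of E14.5. Vim had 8.71 to 80.2 CPM over these libraries, and no other marker of the list came near that upper value. Only the female Tet1-KO sums exceeded 80.2 CPM, so the top Vim value lay in that group and made up most of the sum in its library. The mesenchyme sum at E14.5 can therefore follow Vim more than the other markers.

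Averaged over the 5 stage and sex groups, Fos and Egr1 fell in Tet1-KO. Fos was lower by log2 -1.16 (SE 0.27, edgeR adjusted p = 0.0112, n = 10 each) and Egr1 by log2 -2.39 (SE 0.38, adjusted p = 0.000845). Both were called whichever library was left out, and also over the E12.5 and E14.5 groups alone, without the E10.5 libraries whose Tet1 level overlapped (Fos log2 -1.13, adjusted p = 0.0399, and Egr1 log2 -2.26, adjusted p = 0.00608). Jun was log2 -1.36 (adjusted p = 0.0586) and Atf3 log2 -2.25 (adjusted p = 0.152). Ier2 at log2 0.14 and Dusp1 at log2 0.25 stood apart from these, and neither passed the test. Of the 9 tested 2 were called, beside 13.9% of all genes, so the count of called genes lies near the share of the whole table. With the mesenchyme covariate Fos was log2 -0.81 and Egr1 log2 -1.47, neither called, as was no gene of the table. This average shares its libraries with the 5 comparisons above and adds no new ones.

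The difference in Tet1-KO effect between stages was tested as a term of the same fit. For Fos the effect averaged over the sexes was higher at E14.5 than at E12.5 by log2 2.49 (SE 0.61, edgeR adjusted p = 0.0408). At E12.5 the Tet1-KO difference was log2 -1.68 in females and -3.06 in males, and at E14.5 it was log2 -0.15 in females and 0.39 in males. The call was lost in 13 of the 20 refits that each left out 1 library, with values between log2 2.08 and 2.71 and adjusted p up to 0.114, the highest without E12.5 male Tet1-WT replicate 1. Of all genes 2.92% were called in this contrast. For the difference in Tet1-KO effect between males and females none of the 9 genes was called at E12.5 or at E14.5. Of all genes 0% were called at E12.5 and 1.43% at E14.5. At E12.5, 0 of 9 passed an unadjusted p under 0.05, beside 1007 of all 17567 genes. The difference between E12.5 and E10.5 gave no call either (beside 0.592%), and 0 passed an unadjusted p under 0.05, beside 2413 of all genes. Over the 4 contrasts together edgeR called 1 gene and DESeq2 3. At E14.5 the difference in Tet1-KO effect between the sexes had an unadjusted p under 0.05 in 4 of the 9 genes. Of all 17567 genes 2711 did. The Tet1-KO effect (not the level) of Fosb, Egr1 and Atf3 was higher in males and that of Dusp1 lower (log2 -2.00, edgeR adjusted p = 0.17).

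**Figure D3:**
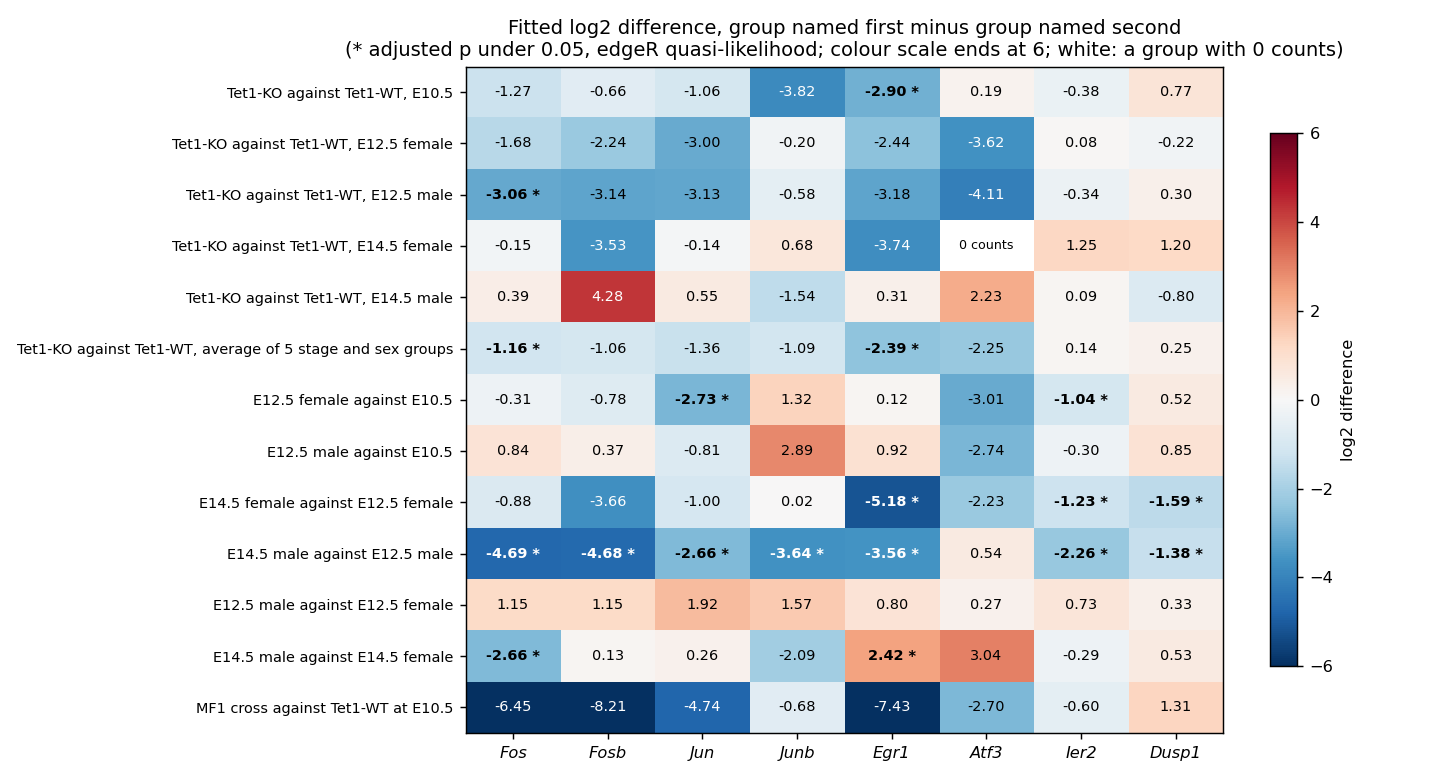
Fitted log2 difference of 8 of the 10 genes (columns) in the 13 comparisons (rows), the group named before "against" minus the one named after it, in colour and as numbers, with called values (edgeR adjusted p under 0.05) in bold with a star. The row for E14.5 male against E12.5 male holds 7 called values, all negative. Hspa1a and Hspa1b are left out for their counts of 0, and Atf3 in E14.5 females reads 0 counts because both Tet1-KO libraries were at 0.

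The stage steps were tested on the same libraries. The step between E10.5 and E12.5 was tested over both genotypes together, for each sex against the same 4 E10.5 libraries. In E12.5 females Jun had 1.12 and 0.987 CPM in Tet1-KO and 10.3 and 6.78 CPM in Tet1-WT, against E10.5 values of 8.71 and 19.0 CPM in Tet1-KO and 29.0 and 28.7 CPM in Tet1-WT. Jun fell by log2 -2.73 (SE 0.73, edgeR adjusted p = 0.0127), and was not called without E12.5 female Tet1-WT replicate 2 (adjusted p = 0.0563) or Tet1-KO library b (adjusted p = 0.0529). Ier2 fell by log2 -1.04 (SE 0.31, adjusted p = 0.0244), with 18.9 to 24.2 CPM in the 4 E12.5 female libraries and 30.6 to 59.3 CPM in the 4 E10.5 libraries, groups that did not overlap. The Ier2 call was lost in 5 of 8 refits that left out 1 library, with adjusted p of at most 0.0931. Of the 9 tested 2 were called, beside 24.9% of all genes.

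The refits in which Ier2 was lost were those without E10.5 Tet1-WT replicate 2 (log2 -0.94, adjusted p = 0.0749), E10.5 Tet1-KO replicate 1 (log2 -0.86, adjusted p = 0.0672), E12.5 female Tet1-WT replicate 2 (log2 -0.92, adjusted p = 0.0931), Tet1-KO library a (adjusted p = 0.0716) and Tet1-KO library b (adjusted p = 0.0735). All kept the direction. In E12.5 males against E10.5 edgeR called 0 of 9, beside 19.6% of all genes. At an unadjusted p under 0.05, 2 were higher (Junb and Dusp1), beside 3522 of all 17567 genes higher. DESeq2 called 1, Junb, and the share of all genes called in that fit is not given here. Fos had log2 0.84 (adjusted p = 0.171) in that step, and Dusp1 log2 0.85 (adjusted p = 0.0989).

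Without E10.5 Tet1-WT replicate 2, the E10.5 library with the most Fos and Egr1, edgeR called Fos and Egr1 for E12.5 males against E10.5. Without E10.5 Tet1-KO replicate 1 it called Dusp1. Each of these refits leaves a single library in a group, and the share of all genes called in them is not given here. Within Tet1-WT the males had 287 and 120 CPM of Fos at E12.5, against 24.8 and 97.1 CPM at E10.5, and the groups did not overlap (log2 1.74, SE 0.59, adjusted p = 0.08). Within Tet1-KO they had 30.4 and 18.3 CPM at E12.5, against 36.9 and 13.7 CPM at E10.5 (log2 -0.05). Summed mesenchyme markers overlapped between these stages, with 275 to 2432 CPM in the males and 182 to 1469 CPM in the females, against 659 to 2923 CPM at E10.5.

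Between E12.5 and E14.5 most of the group fell in males. Fos had 3.87 and 2.37 CPM in Tet1-KO and 2.26 and 2.48 CPM in Tet1-WT at E14.5, against E12.5 values of 30.4 and 18.3 CPM in Tet1-KO and 287 and 120 CPM in Tet1-WT. All 4 later libraries lay below all 4 earlier ones, and Fos fell by log2 -4.69 (SE 0.49, edgeR adjusted p = 1.34e-05). Egr1 had 0.594 to 1.94 CPM at E14.5 and 4.63 to 54.9 CPM at E12.5, and fell by log2 -3.56 (SE 0.57, adjusted p = 0.000475). Ier2 had 5.27 to 9.63 CPM at E14.5 and 31.1 to 51.7 CPM at E12.5, and fell by log2 -2.26 (SE 0.33, adjusted p = 0.000212). Neither pair of ranges overlapped, and these 3 calls held whichever library was left out. Dusp1, the phosphatase that damps the pathway, had 3.28 to 6.47 CPM at E14.5 and 9.92 to 14.7 CPM at E12.5. It fell by log2 -1.38 (SE 0.35, adjusted p = 0.0104), and was not called without E14.5 male Tet1-KO library b (log2 -1.35, adjusted p = 0.0548).

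The remaining AP-1 genes fell in that step as well, with less stable calls. Jun had 3.03 and 1.34 CPM in Tet1-KO and 0 and 2.88 CPM in Tet1-WT at E14.5, against E12.5 values of 3.45 and 4.2 CPM in Tet1-KO and 51.0 and 16.4 CPM in Tet1-WT, and fell by log2 -2.66 (SE 0.73, edgeR adjusted p = 0.017). It was lost without E12.5 male Tet1-WT replicate 1 (log2 -2.12, adjusted p = 0.0901) or E14.5 male Tet1-KO library b (log2 -2.43, adjusted p = 0.0792). Junb had 0 to 0.919 CPM at E14.5 and 1.53 to 6.29 CPM at E12.5 (log2 -3.64, SE 1.14, adjusted p = 0.0319). Fosb had 0, 1.15, 0 and 0.04 CPM at E14.5 and 0.534 to 14.3 CPM at E12.5 (log2 -4.68, SE 1.36, adjusted p = 0.0225), and its groups overlapped. Fosb and Junb were each called in 3 of 8 refits that left out 1 library.

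The refits in which Fosb was lost were those without E12.5 male Tet1-WT replicate 1 (log2 -4.29, adjusted p = 0.0657), E12.5 Tet1-KO library a (adjusted p = 0.0688), E14.5 Tet1-WT replicate 1 (adjusted p = 0.0731), E14.5 Tet1-WT replicate 2 (adjusted p = 0.0699) and E14.5 Tet1-KO library a (adjusted p = 0.0602). Junb was lost without E12.5 Tet1-WT replicate 1 (log2 -3.16, adjusted p = 0.104), E12.5 Tet1-KO library a (adjusted p = 0.0962), E14.5 Tet1-WT replicate 1 (adjusted p = 0.0672), E14.5 Tet1-KO library a (adjusted p = 0.0958) and E14.5 Tet1-KO library b (adjusted p = 0.131). Both stayed negative throughout. Atf3 had log2 0.54 (adjusted p = 0.859) and Hspa1a log2 4.52 (adjusted p = 0.161) and did not pass. Of the 9 tested 7 were called lower and 0 higher, beside 11.6% of all genes called lower and 22.4% either way. Without E12.5 male Tet1-WT replicate 1 the count was 4 (Fos, Egr1, Ier2 and Dusp1), and without E14.5 male Tet1-KO library b also 4 (Fos, Fosb, Egr1 and Ier2). Since a gene could pass the filter through its E12.5 libraries alone, the 9 are not a neutral sample of the 10.

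Each genotype was also read on its own in that step. Within Tet1-KO males Fos fell by log2 -2.96 (SE 0.66, edgeR adjusted p = 0.0103), Ier2 by log2 -2.04 (adjusted p = 0.0114) and Dusp1 by log2 -1.93 (adjusted p = 0.0243), beside 4.87% of all genes called lower. Within Tet1-WT males Fos fell by log2 -6.42 (SE 0.74, adjusted p = 6.29e-05), Egr1 by log2 -5.31 (adjusted p = 0.00105), Jun by log2 -4.50 (adjusted p = 0.015) and Ier2 by log2 -2.48 (adjusted p = 0.00286), beside 7.75% called lower. Fosb was also called in Tet1-WT, but in 1 of 4 refits that left out 1 library (adjusted p up to 0.134), and Jun was lost without E12.5 Tet1-WT replicate 1 (log2 -3.44, adjusted p = 0.131). The Tet1-KO libraries started from a lower Fos level at E12.5 and had a mesenchyme sum of 275 to 419 CPM there, against 1546 to 2432 CPM in Tet1-WT, and 46.3 to 66.8 CPM in both genotypes at E14.5. With 1 library less the Tet1-KO calls were lost for Fos without E12.5 library a (adjusted p = 0.0749) or E14.5 library b (adjusted p = 0.1251), for Ier2 in 3 of 4 refits (adjusted p at most 0.14) and for Dusp1 in all 4 (adjusted p at most 0.205).

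In females the same step lowered Egr1, Ier2 and Dusp1. Egr1 had 0.132 and 0 CPM in Tet1-KO and 0.906 and 0.742 CPM in Tet1-WT at E14.5, against E12.5 values of 4.14 and 2.96 CPM in Tet1-KO and 18.0 and 20.9 CPM in Tet1-WT. It fell by log2 -5.18 (SE 0.69, edgeR adjusted p = 4.01e-05), with no overlap. Dusp1 had 1.71 to 6.4 CPM at E14.5 and 8.46 to 10.49 CPM at E12.5, and fell by log2 -1.59 (SE 0.36, adjusted p = 0.00285). Ier2 had 4.03 to 20.7 CPM at E14.5 and 18.9 to 24.2 CPM at E12.5, and fell by log2 -1.23 (SE 0.32, adjusted p = 0.00771), with Tet1-KO library b inside the earlier range. These 3 calls held in all 8 refits that left out 1 library.

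Fos did not pass in the female step (log2 -0.88, SE 0.42, edgeR adjusted p = 0.124), with 10.9 to 21.9 CPM at E14.5 and 17.3 to 70.8 CPM at E12.5. Within Tet1-WT females it had 17.6 and 18.8 CPM at E14.5 and 42.6 and 70.8 CPM at E12.5 (log2 -1.64, adjusted p = 0.0548), and within Tet1-KO 21.9 and 10.9 CPM at E14.5 and 18.1 and 17.3 CPM at E12.5 (log2 -0.12). Fosb was log2 -3.66 (adjusted p = 0.0509), Jun log2 -1.0 (adjusted p = 0.338) and Junb log2 0.02. Of the 9 tested 3 were called, all lower, beside 17.7% of all genes called lower and 31.4% either way. Whether the female and male steps differ was not tested directly.

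Mesenchyme markers were lower at the later stage in both sexes, with 15 of 15 lower at E14.5 than at E12.5 in their mean. In males they summed to 46.3 to 66.8 CPM at E14.5 and 275 to 2432 CPM at E12.5, and in females to 65.0 to 114 CPM at E14.5 and 182 to 1469 CPM at E12.5. Markers of endothelium summed to 81.8 to 214 CPM in E14.5 males and 221 to 306 CPM in E12.5 males, with 7 of 8 lower and 1 higher at E14.5. These sums were mostly Pecam1, which had 56.5 to 211 CPM over the E14.5 libraries of both sexes. No other endothelial marker passed 12.6 CPM there, so the sum says little of endothelial RNA. With the mesenchyme sum as a covariate 0 of the 9 genes were called in either step, and of all genes 0 were called in males and 14 in females, so little of any kind could be called in that fit. Junb was positive there in males (log2 0.91, adjusted p = 1). Beyond that fit, the part of the mesenchyme in these steps was not tested. Within Tet1-KO the marker sum was 101 and 114 CPM in E14.5 females and 182 and 187 CPM in E12.5 females, and Fos was log2 -0.12 in that step. In Tet1-KO males, where the sum was 66.8 and 55.7 CPM at E14.5 and 419 and 275 CPM at E12.5, Fos was log2 -2.96, a call that was lost in 2 of 4 refits.

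The sexes were compared at each stage, males against females. At E12.5 edgeR called 0 of the 9 genes, beside 2.45% of all genes, and DESeq2 called 0. At an unadjusted p under 0.05, 3 were higher, beside 1255 of all 17567 genes higher. Fos had 30.4 and 18.3 CPM in male Tet1-KO and 287 and 120 CPM in male Tet1-WT, against 18.1 and 17.3 CPM in female Tet1-KO and 42.6 and 70.8 CPM in female Tet1-WT (log2 1.15, SE 0.41, adjusted p = 0.184). Within each genotype both male libraries lay above both female ones for Fos, Jun, Junb, Egr1 and Ier2. How many of all genes separated in that way was not counted. All 9 fitted values were positive, between log2 0.27 and 1.92, beside a median of log2 -0.0048 over all genes. Several of the 9 vary together (r 0.83 between Fos and Fosb), so they are not independent observations. A fit of these 8 libraries alone called 2, Fos and Jun, and the share of all genes called in it is not given here. The mesenchyme sum was also higher in males within each genotype, at 275 to 419 CPM against 182 to 187 CPM in Tet1-KO and at 1546 to 2432 CPM against 1142 to 1469 CPM in Tet1-WT, and its part in these values was not tested.

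At E14.5 Fos separated the sexes in every library. It had 3.87 and 2.37 CPM in male Tet1-KO and 2.26 and 2.48 CPM in male Tet1-WT, against 21.9 and 10.9 CPM in female Tet1-KO and 17.6 and 18.8 CPM in female Tet1-WT. Fos was lower in males by log2 -2.66 (SE 0.46, edgeR adjusted p = 0.00031), a call that held in all 8 refits that left out 1 library. Within each genotype it was called too, at log2 -2.39 (adjusted p = 0.0174) in Tet1-KO and log2 -2.93 (adjusted p = 0.00338) in Tet1-WT. The Tet1-KO call was lost without female library a (log2 -1.87, adjusted p = 0.102), male library a (log2 -2.80, adjusted p = 0.0518) or male library b (log2 -2.10, adjusted p = 0.137). The mesenchyme sum was 46.3 to 66.8 CPM in males and 65.0 to 114 CPM in females, and with it as a covariate Fos was log2 -2.50 (adjusted p = 0.00634). As given above, the sum at E14.5 can follow Vim more than the other markers, which limits what this covariate shows. At E14.5 female germ cells enter meiosis and male germ cells enter mitotic arrest, which is background and was not measured here.

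Egr1 went the other way at E14.5, on few counts. It had 0.774 and 1.94 CPM in male Tet1-KO and 0.594 and 1.56 CPM in male Tet1-WT (10 to 39 counts), against 0.132 and 0 CPM in female Tet1-KO and 0.906 and 0.742 CPM in female Tet1-WT (0 to 18 counts). The groups overlapped, and Egr1 was higher in males by log2 2.42 (SE 0.71, edgeR adjusted p = 0.0136). Within Tet1-KO it was log2 4.45 (adjusted p = 0.0123) and within Tet1-WT log2 0.39 (adjusted p = 0.778), and the difference between these did not pass (adjusted p = 0.167). The Tet1-KO value was not called without female library b (adjusted p = 0.118) or male library b (adjusted p = 0.101). The call was lost without female Tet1-KO library b (log2 1.83, adjusted p = 0.0766), male Tet1-WT replicate 2 (log2 1.97, adjusted p = 0.0666) or male Tet1-KO library b (log2 2.00, adjusted p = 0.0627), and in a fit of the 8 libraries alone (adjusted p = 0.0985).

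Ier2 (log2 -0.29), Jun (log2 0.26) and Dusp1 (log2 0.53) did not pass the test between the sexes at E14.5. Dusp1 was called higher in males within Tet1-WT, at 5.76 and 6.47 CPM in males, against 1.71 and 2.54 CPM in females (log2 1.54, edgeR adjusted p = 0.0339). In Tet1-KO it had 3.74 and 3.28 CPM in males and 6.4 and 3.33 CPM in females, with overlapping groups. The Tet1-WT call was lost whichever of its 4 libraries was left out (adjusted p at most 0.243). Of the 9 tested 1 was called higher and 1 lower over both genotypes, beside 37.6% of all genes, a lower share than the whole table shows. The comparison shares its male and female libraries with the stage steps above.

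The MF1 cross gave wild-type E10.5 germ cells from another cross, and was fitted with the 2 E10.5 Tet1-WT libraries alone, since its counts stand in a separate table. On the scale of that fit Jun had 0.768 and 1.40 CPM in MF1, against 29.4 and 28.5 CPM in Tet1-WT. The libraries of each cross lay close together and far from the other cross, but Jun did not pass (log2 -4.74, SE 0.68, edgeR adjusted p = 0.0564, 2 residual degrees of freedom). Fos had 1.40 and 0 CPM in MF1 (80 and 0 counts), against 25.2 and 96.4 CPM in Tet1-WT. Egr1 had 0 and 0.233 CPM in MF1 (0 and 15 counts), against 6.89 and 34.9 CPM in Tet1-WT. A Fos count of 0 in the deeper MF1 library allows at most 0.0465 CPM. Fosb had 0 and 0.0155 CPM in MF1 and 0.861 and 5.74 CPM in Tet1-WT, again without overlap.

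For Ier2 and Dusp1 the values did not lie that way. Ier2 had 21.5 and 47.2 CPM in MF1 and 45.2 and 58.9 CPM in Tet1-WT, with overlapping groups (log2 -0.60). Dusp1 had 13.6 and 11.9 CPM in MF1 and 4.36 and 5.95 CPM in Tet1-WT, higher in both MF1 libraries (log2 1.31, adjusted p = 0.366). Hspa1a and Hspa1b had 0 counts in both MF1 libraries, and neither passed the filter there. By edgeR 0 of the 8 tested were called, beside 0.606% of all 15500 genes. At an unadjusted p under 0.05, 4 were lower (Fos, Fosb, Jun and Egr1), beside 2089 of all 15500 genes lower. DESeq2 called 3 (Fosb, Jun and Egr1), and edgeR with the replicate number as a block called 2, Jun and Egr1. The 0.606% belongs to the main fit, and the share of all genes called in these 2 fits is not given here. Refits without 1 MF1 library leave a single library in that group, which is assumed to vary like the 2 Tet1-WT libraries, with 1 residual degree of freedom. Without MF1 replicate 1 such a fit called 4 of 9, beside 27.2% of all genes, and without MF1 replicate 2 it called 6 of 9, beside 29.3%. Without Tet1-WT replicate 1 it called 1, Egr1, beside 1.34% of all genes. Mesenchyme markers summed to 141 and 127 CPM in MF1 and 2531 and 2900 CPM in Tet1-WT. Cross, cell number, RNA kit, depth and marker sum change together here and cannot be told apart.

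Genes that share the pathways of these 10 were counted from 6 lists. In the stage and sex comparisons of these lists each mean ± SD pools 2 Tet1-KO and 2 Tet1-WT libraries, so the SD includes any genotype difference. Counts of called genes between E14.5 and E12.5 stand beside 11.6% of all genes called lower and 10.8% higher in males, and 17.7% lower and 13.6% higher in females. The mesenchyme sum was lower at E14.5 in both sexes, as given above, and with it as a covariate no gene of the table was called in the male step and 14 in the female step. Of other immediate early genes (24 of 26 tested) 10 were lower and 1 higher in E14.5 males against E12.5 males, and 10 lower and 1 higher in E14.5 females against E12.5 females. Their median was log2 -1.26 in males, beside 0 over all genes, and log2 -0.63 in females, beside -0.07 over all genes. Id1, a helix-loop-helix inhibitor of differentiation, had 3.88 ± 0.353 CPM in E14.5 males and 30.4 ± 19.98 CPM in E12.5 males (SD, n = 4 each, log2 -2.80, edgeR adjusted p = 2.78e-05). Its relative Id3 had 93.9 ± 24.1 CPM in E14.5 males and 384 ± 87.2 CPM in E12.5 males (log2 -2.04, adjusted p = 1.47e-05). Klf6, a zinc-finger factor of the rapid response, had 9.78 ± 1.88 CPM in E14.5 females and 28.4 ± 3.71 CPM in E12.5 females (log2 -1.54, adjusted p = 0.000124). The other AP-1 and ATF genes had 3 lower and 0 higher of 10 in males, and 2 lower and 0 higher of 10 in females, a count near the share of all genes. Among them Maff, a small MAF protein that lacks an activation domain, had 0.107 ± 0.0768 CPM in E14.5 males and 1.15 ± 0.538 CPM in E12.5 males (log2 -3.54, adjusted p = 0.0102, and 0.0512 without E14.5 Tet1-KO library a).

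Feedback genes of the MAP kinase pathway fell in part. Of 14 in the list of other phosphatases, Sprouty and Spred genes, 6 were lower and 0 higher in males between these stages, and 6 lower and 1 higher in females, with medians of log2 -1.01 and -0.92. Spry4, an inhibitor of receptor tyrosine kinase signalling, had 8.69 ± 3.13 CPM in E14.5 males and 33.6 ± 5.56 CPM in E12.5 males (SD, n = 4 each, log2 -1.95, edgeR adjusted p = 0.00278). Dusp6, a phosphatase specific for ERK, had 21.5 ± 18.98 CPM in E14.5 females and 85.2 ± 22.1 CPM in E12.5 females (log2 -2.37, adjusted p = 1.8e-06). The E14.5 females pool 35.6 ± 16.5 CPM in Tet1-KO with 7.49 ± 4.25 CPM in Tet1-WT. At E14.5 Dusp6 had 95.6 ± 11.7 CPM in males, higher than in females by log2 2.57 (adjusted p = 4.56e-07). Kinases and factors upstream of the immediate early genes (14 genes) had 4 lower and 1 higher in males between the stages and 4 lower and 3 higher in females. The integrated stress response list (11 genes) had 2 higher and 2 lower in each sex.

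The list of other heat shock genes and HSF1 targets holds inducible and constitutive chaperones as well as the factors Hsf1 and Hsf2. Of its 20 tested genes 8 were higher and 0 lower in E14.5 males against E12.5 males, beside 10.8% of all genes called higher, with a median of log2 0.35. In females 3 were higher and 6 lower, beside 13.6% of all genes called higher and 17.7% lower, with a median of log2 -0.24. Hspa2, an HSP70 needed in male meiosis, had 76.1 ± 26.5 CPM in E14.5 males and 14.9 ± 5.57 CPM in E12.5 males (SD, n = 4 each, log2 2.37, edgeR adjusted p = 2.33e-05). With the mesenchyme sum as a covariate Hspa2 was log2 -0.0533 (adjusted p = 1), so both its call and its direction were lost. Hspa4l, an HSP110 co-chaperone, had 61.8 ± 14.3 CPM in E14.5 males and 23.2 ± 4.95 CPM in E12.5 males (log2 1.42, adjusted p = 0.000607), and 117 ± 17.8 CPM in E14.5 females and 24.2 ± 7.92 CPM in E12.5 females (log2 2.31, adjusted p = 4.09e-06). Between the sexes at E14.5 10 of the 20 heat shock genes were higher and 3 lower in males, with Hsp90ab1 higher in males by log2 1.21 (adjusted p = 1.72e-06). Id1 was lower in males there by log2 -5.41 (adjusted p = 2.49e-08) and Maff by log2 -4.71 (adjusted p = 0.00082). Over all genes 19.9% were called higher and 17.7% lower between these sexes.

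Between the genotypes 14 of the 93 tested genes of the 6 lists were called at E10.5, or 15.1%, beside 8.81% of all genes. The integrated stress response list had 2 higher and 3 lower of 11 in Tet1-KO, with a median of log2 -1.45, and the heat shock list 1 higher and 2 lower of 20. In the mesenchyme covariate fit 9 genes of the whole table were called at E10.5. The other immediate early genes had 2 higher and 3 lower of 24 in Tet1-KO, among them Klf10, a TGF-beta-induced factor, with 207 ± 73.1 CPM in Tet1-KO and 86.4 ± 1.33 CPM in Tet1-WT (SD, n = 2 each, log2 1.26, edgeR adjusted p = 0.00482). Nr4a1, an orphan nuclear receptor induced like Egr1, had 0.0548 ± 0.0775 CPM in Tet1-KO and 3.6 ± 0.895 CPM in Tet1-WT (adjusted p = 0.00735), and Asns, asparagine synthetase and a target of ATF4, had 602 ± 137 CPM in Tet1-KO and 282 ± 30.9 CPM in Tet1-WT (log2 1.09, adjusted p = 0.00186). A fit of the 4 E10.5 libraries alone called none of these 3, and no gene of the table. At E12.5 Ccn1, a secreted matrix protein, had 1.79 ± 1.04 CPM in female Tet1-KO and 33.9 ± 5.65 CPM in female Tet1-WT (log2 -4.19, adjusted p = 0.0303), the only called gene of the 6 lists in females.

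In E12.5 males Btg2, an antiproliferative gene, had 19.3 ± 7.64 CPM in Tet1-KO and 68.6 ± 17.7 CPM in Tet1-WT (SD, n = 2 each, log2 -1.83, edgeR adjusted p = 0.0269), and Hsp90aa1, the inducible HSP90, had 3563 ± 32.5 CPM in Tet1-KO and 2179 ± 220.01 CPM in Tet1-WT (log2 0.71, adjusted p = 0.0206). Of the refits that left out 1 library, Ccn1 was called only without Tet1-WT replicate 1 and otherwise had an adjusted p of up to 0.391. Btg2 and Hsp90aa1 were called only without Tet1-WT replicate 2, with adjusted p otherwise up to 0.378 for Btg2 and 0.445 for Hsp90aa1, both without Tet1-WT replicate 1. In E14.5 females Dusp6 had 35.6 ± 16.5 CPM in Tet1-KO and 7.49 ± 4.25 CPM in Tet1-WT (log2 2.30, adjusted p = 0.00199), while Hspa5, the chaperone of the endoplasmic reticulum, had 1016 ± 40.3 CPM in Tet1-KO and 2145 ± 15.1 CPM in Tet1-WT (log2 -1.08, adjusted p = 0.000529). In E14.5 males 0 genes of the 6 lists were called. In MF1 against Tet1-WT 1 of 22 other immediate early genes was called, and it was lower.

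**Figure D4:**
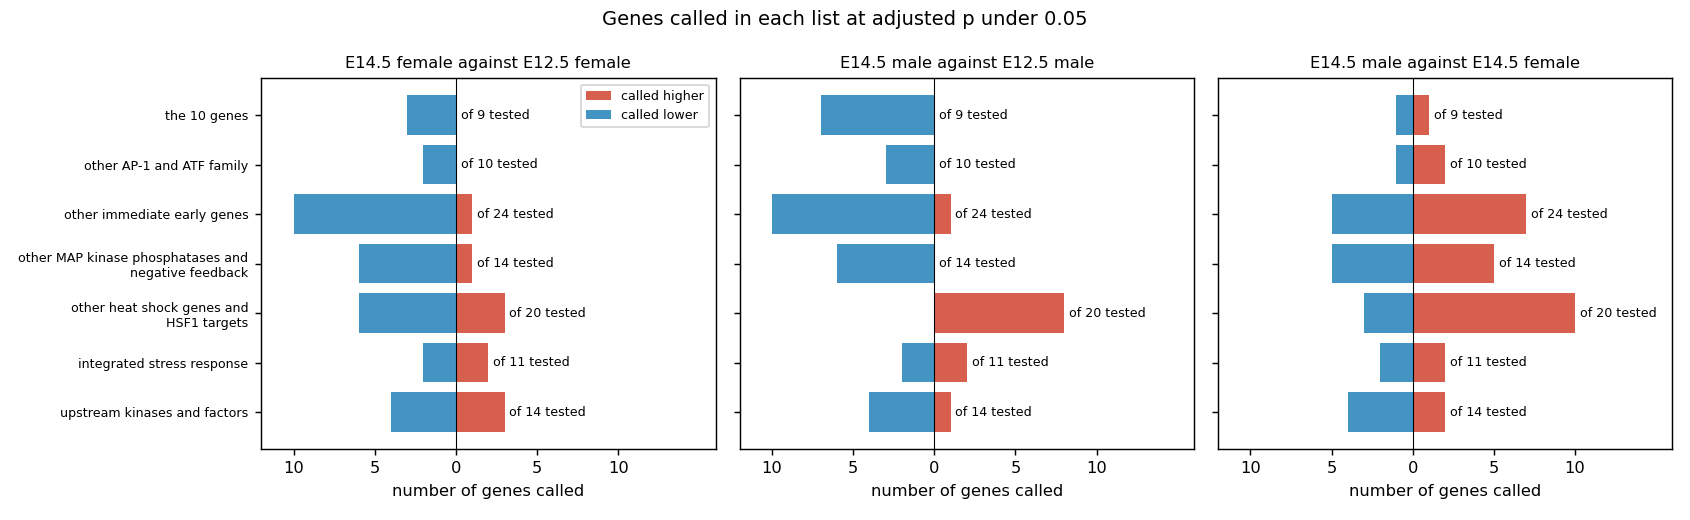
Number of genes called higher (right) and lower (left) by edgeR at an adjusted p under 0.05 in the 10 genes and the 6 related lists, for 3 comparisons, with the number tested beside each bar. In E14.5 males against E12.5 males 7 of 9 and 10 of 24 immediate early genes were called lower and 8 of 20 heat shock genes were called higher.

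The 2 libraries of a group agreed less well for these genes than for the table as a whole in some groups. In E10.5 Tet1-KO the median absolute difference between the replicates was 1.04 on the log2(CPM + 1) scale over the 9 tested genes and 0.42 over all 17567 genes, and in E10.5 Tet1-WT it was 1.30 over the 9 and 0.31 over all. In E12.5 male Tet1-KO it was 0.23 over the 9 and 0.23 over all, and in E12.5 male Tet1-WT 0.74 over the 9 and 0.28 over all. The E12.5 female groups had 0.14 in Tet1-KO and 0.33 in Tet1-WT over the 9, below the values over all genes. At E14.5 it was 0.77 over the 9 and 0.33 over all in female Tet1-KO, 0.24 and 0.23 in female Tet1-WT, 0.60 and 0.21 in male Tet1-KO, and 0.68 and 0.33 in male Tet1-WT. In E10.5 Tet1-WT 7 of the 9 were higher in replicate 2, and in E12.5 male Tet1-WT 7 of the 9 were higher in replicate 1. The largest single gap in E10.5 Tet1-WT was that of Egr1, 2.22 on this scale.

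**Figure D5:**
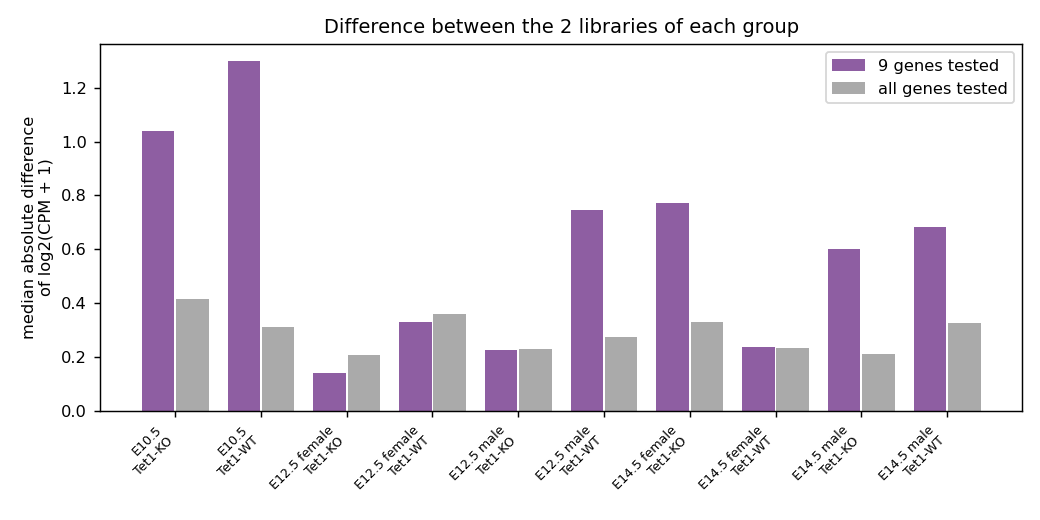
Median absolute difference between the 2 libraries of each group, on the log2(CPM + 1) scale, over the 9 tested genes (purple bars) and over all genes tested (grey bars). The bar over the 9 genes is well above that over all genes in 6 groups, among them E10.5 Tet1-WT (1.30 against 0.31), E12.5 male Tet1-WT (0.74 against 0.28) and E14.5 female Tet1-KO (0.77 against 0.33). In the E12.5 females it is the lower bar.

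Across the 20 libraries some of the genes varied together, given here as a description since the libraries share groups, depth and marker RNA. Over log2(CPM + 1) Pearson's r was 0.83 between Fos and Fosb, 0.79 between Fos and Egr1, 0.84 between Fosb and Egr1, 0.72 between Fos and Jun, and 0.79 between Egr1 and Jun. Junb had r of 0.71 with Fos and Ier2 0.69 with Fos. With Fos, Dusp1 had 0.48, Atf3 0.20 and Hspa1a -0.21, and the highest value of Atf3 was 0.67, with Jun. The genes outside the 10 whose pattern was most like each of them (of 16803 compared) were Bmp1 for Fos (0.88), Tgm2 for Fosb (0.93), Irs1 for Jun (0.95), Ankrd9 for Junb (0.78), Rnase4 and Islr for Egr1 (0.95 and 0.94), Gabbr1 for Atf3 (0.87), Mdp1 for Ier2 (0.92), Samd1 for Dusp1 (0.88) and Endou for Hspa1a (0.95). Tgm2, Irs1, Rnase4 and Islr were, like their partners, highest in E12.5 male Tet1-WT replicate 1. Mdp1 was, like Ier2, highest in E10.5 Tet1-WT replicate 2. Bmp1, Ankrd9, Gabbr1 and Samd1 were highest in another library than their partners. Endou was highest in E14.5 male Tet1-WT replicate 1, the top library of Hspa1a, with a median of 0 over the 20.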

How the data were processed

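The deposited tables hold whole-number read counts per Ensembl gene, not normalized, for 20 libraries of the Tet1 cross (37991 genes) and 2 of the MF1 cross (37620 genes). The submitters' processing notes name Trimmomatic, TopHat2 2.0.2, Bowtie 0.12.8, HTSeq 0.5.3p9 and the mouse build mm9, and the labels' protocols give pooled sorted cells and SMARTer cDNA. The annotation, the strand setting and the rule for reads with several matches are not given in the sources used here.

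Counts were tested with edgeR 4.0.16 (R 4.3.3, limma 3.58.1) by the robust quasi-likelihood test after TMM scaling and filterByExpr (minimum count 10, total 15), with 1 coefficient for each of 10 groups. This left 17567 genes, 10 residual degrees of freedom and a common biological coefficient of variation of 0.46. The MF1 libraries were fitted with the 2 E10.5 Tet1-WT libraries apart, with 15500 genes and 2 residual degrees of freedom. P-values were adjusted by Benjamini-Hochberg over all genes tested, and a gene was called at an adjusted p under 0.05. CPM values are TMM-scaled, and the floor is 3 counts per library. The same test was run on simulated counts with 200 genes changed.

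There were 13 comparisons and 4 contrasts of the Tet1-KO effect. Alternatives were another scaling (RLE), no filter, DESeq2 1.42.0, the compared libraries alone, leaving out each library and the replicate number as a block. After seeing the data, a mean over the E12.5 and E14.5 groups, the summed mesenchyme level as a covariate and a replicate block within Tet1-WT were added. The 10 genes and all lists were chosen with earlier results of these data known, so none is independent evidence. The text names the 10 genes, Tet1, at most 2 called genes per list and comparison by smallest p, and the genes most like each member in log2(CPM + 1). Motifs were searched in 250-base RefSeq windows (GRCm38.p6). No coordinate was converted between builds.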

Additional observations from a re-analysis of the deposited data

Results flagged for a closer look

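For Fos the Tet1-KO effect differed between stages by a test of the difference itself, at log2 2.49 (SE 0.61, edgeR adjusted p = 0.0408) for the mean of the E14.5 groups minus the mean of the E12.5 groups. The call was lost in 13 of 20 refits that left out 1 library. The summed mesenchyme level was lower in Tet1-KO than in Tet1-WT at E12.5 and higher in Tet1-KO at E14.5. The E14.5 sum can follow Vim more than the other markers, since Vim had 8.71 to 80.2 CPM there and no other marker came near that upper value. The single markers were mixed at E14.5: of 15, 5 had a higher and 9 a lower mean in Tet1-KO females, and 9 a higher and 5 a lower mean in Tet1-KO males. With the sum as a covariate the difference was log2 1.60 (adjusted p = 1). The part of the mesenchyme was not tested further.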

How the results depend on the processing

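Another scaling (RLE) left every count of called genes among the 10 within 1.5 times the value reported. Without a filter on low counts the counts were 2 for Tet1-KO against Tet1-WT at E10.5, 3 in females and 3 in males at E12.5, 2 in females at E14.5 and 4 on average, 2 for E12.5 males against E10.5, 5 for E14.5 against E12.5 females, 2 for E12.5 males against females, 2 for MF1 and 4 for the effect contrasts. For Tet1-KO against Tet1-WT DESeq2 called 2 in females and 3 in males at E12.5 and 1 in females at E14.5, and otherwise 1 for E12.5 males against E10.5, 3 for MF1 and 3 for the effect contrasts. The compared libraries alone gave 0 at E10.5, 3 in E12.5 females, 4 in E12.5 males, 5 for E14.5 against E12.5 females, 2 for E12.5 and 1 for E14.5 males against females. The mesenchyme covariate, which follows the groups closely, gave 0 at E10.5, in E12.5 males and on average for Tet1-KO, 0 for E12.5 females against E10.5, 0 for both E14.5 against E12.5 steps and 0 for the effect contrasts. It kept 2 for E14.5 males against females. Under it Junb (log2 0.91) and Hspa2 (log2 -0.0533) turned in E14.5 against E12.5 males. The cause of these shifts was not tested. The counts in this paragraph stand without the share of all genes called in the same fit, so they do not set the 10 genes apart from the table.

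Leaving out 1 library, the counts ranged from 0 to 1 at E10.5, 0 to 1 in males at E12.5, 0 to 1 in females at E14.5, 2 to 4 on average, 0 to 3 for E12.5 females and 0 to 2 for E12.5 males against E10.5, 3 to 4 and 4 to 7 for E14.5 against E12.5 females and males, 1 to 3 for E14.5 males against females, 0 to 6 for MF1 and 0 to 1 for the effect contrasts. Same-numbered replicates did not deviate together over the genes tested (r 0.01 at E10.5 and 0.00063 for MF1). Such a correlation cannot show whether same-numbered libraries were prepared together. With the replicate number as a block 1 gene was called at E10.5 and 2 for MF1. The counts in this paragraph also stand without the share of all genes called in the same fits. Within Tet1-WT, where all columns carry numbers, same-numbered libraries did not deviate together either (r -0.0462 to 0.0276 over 10 pairs of groups). A replicate block there, added after seeing the data, changed no call of a value printed within Tet1-WT and added Ier2 in E12.5 females against E10.5. In comparisons with Tet1-KO libraries of E12.5 or E14.5 no paired analysis was possible because those columns carry no number. With 2 pools a group and few counts of Hspa1a, Hspa1b, Atf3 and Fosb, differences in these genes were hardly detectable.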
